A study of Mus musculus with 9 samples.

Results

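Costimulatory and coinhibitory molecules are the surface proteins with which a dendritic cell tells a T cell whether to respond to the antigen it sees. The genes described here are 10 such genes: Cd80, Cd86, Icosl, Cd274, Pdcd1lg2, Cd40, Cd83, Tnfsf4, Tnfsf9 and Cd70. They were chosen by name, and each was read from the probe set that names it alone, taking the one with the highest mean over the arrays where there was more than 1. All 10 were measured, out of 19938 genes, by 11 probe sets in all, because Cd80 has 2.

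RNA came from 9 samples of cultured mouse dendritic cells, 3 in each of 3 groups, hybridised to Affymetrix gene arrays. The first group was wild-type (WT), untransduced and unstimulated, and the second was WT, untransduced and given 100 ng/ml of LPS, the bacterial lipopolysaccharide sensed by Toll-like receptor 4, for 4 h. The third received the same LPS but had been transduced with an shRNA targeting JmjD2d in the retroviral vector pSir-delta U6CHisD and selected in 2 mM histidinol. JmjD2d, encoded by Kdm4d, is a demethylase of lysine 9 of histone H3. All cells were bone marrow-derived progenitors expanded in SCF, IL-3 and IL-6 and differentiated over 8 days in GM-CSF, with SCF for the first 4 days. No array of control-hairpin cells and none of unstimulated knockdown cells was analysed here, so the hairpin cannot be told apart from transduction and selection. For the knockdown cells, a different level before LPS cannot be told apart from a different response to LPS.

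Each value below is a log2 array value, and a difference of 1 is a 2-fold change. The 10 probe sets differ in sequence and brightness, so values are compared between arrays for 1 gene and never between genes. A difference is called a change when its limma p, adjusted by the Benjamini-Hochberg method over all 19938 genes, is under 0.05. Errors on differences are standard errors (SE) of that model, with 3 arrays per group. The paired fit is the same model with the replicate number as a block. Kdm4d itself read 7.24 to 7.65 in unstimulated WT, 7.54 to 7.79 in LPS-treated WT and 7.11 to 7.43 in knockdown cells. These values lay around the array medians of 7.22 to 7.31. The knockdown difference was -0.37 (SE 0.13, adjusted p = 0.278) and was not called a change. Its knockdown values lay below all 3 LPS-treated WT values, an arrangement found in 8.38% of all genes. Itgax, the CD11c marker of dendritic cells, read 12.29 to 13.30 on the 9 arrays, and Adgre1, the F4/80 marker of macrophages, read 12.96 to 13.55. Flt3, the receptor of another dendritic cell growth factor, read 6.49 to 7.05, below the array medians of 7.22 to 7.31. Because the cultures were measured in bulk, fewer cells of a type and less RNA per cell cannot be told apart.

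T cells need a second signal beside antigen. CD80 and CD86 give it through CD28 and are held in check when CTLA-4 takes them up. ICOS ligand and the TNF family members OX40L (Tnfsf4), 4-1BBL (Tnfsf9) and CD70 prolong the response, whereas PD-L1 (Cd274) and PD-L2 (Pdcd1lg2) restrain it through PD-1. CD40 differs in being a receptor on the dendritic cell, engaged by CD40 ligand on the T cell, and CD83 is a maturation marker that stabilises CD86 and MHC class II at the surface.

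In WT cells LPS raised 8 of the 10 genes and lowered none, beside 3.99% of all genes raised and 6.86% lowered. The 8 were Cd40, Cd83, Tnfsf9, Icosl, Cd86, Tnfsf4, Cd274 and Cd80, in order of the size of the rise, and on each of them the 3 LPS-treated arrays lay above the 3 unstimulated ones, an arrangement found in 12.8% of all genes. None of the 10 was below in this way (16.5% of genes). The paired fit also called 8 higher and 0 lower, beside 5.19% and 9.57% of genes. Pdcd1lg2 and Cd70 did not pass. The median log2 difference was 1.24 over the 10 genes and 0.04 over all genes. In knockdown cells after LPS, 3 of the 10 were lower than in WT cells after LPS, Cd86, Pdcd1lg2 and Cd80, and none was higher, beside 0.361% of all genes lower and 0.401% higher. The paired fit called 5 lower, adding Cd40 and Cd83, and none higher, beside 1.24% and 1.51% of all genes. On 6 genes, these 5 and Tnfsf4, the 3 knockdown values lay below the 3 values of LPS-treated WT cells, and on none above, beside 8.38% and 8.21% of all genes. The median difference was -0.77 over the 10 genes and -0.03 over all genes. The LPS comparison and the knockdown comparison share the LPS-treated WT arrays.

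**Figure D1:**
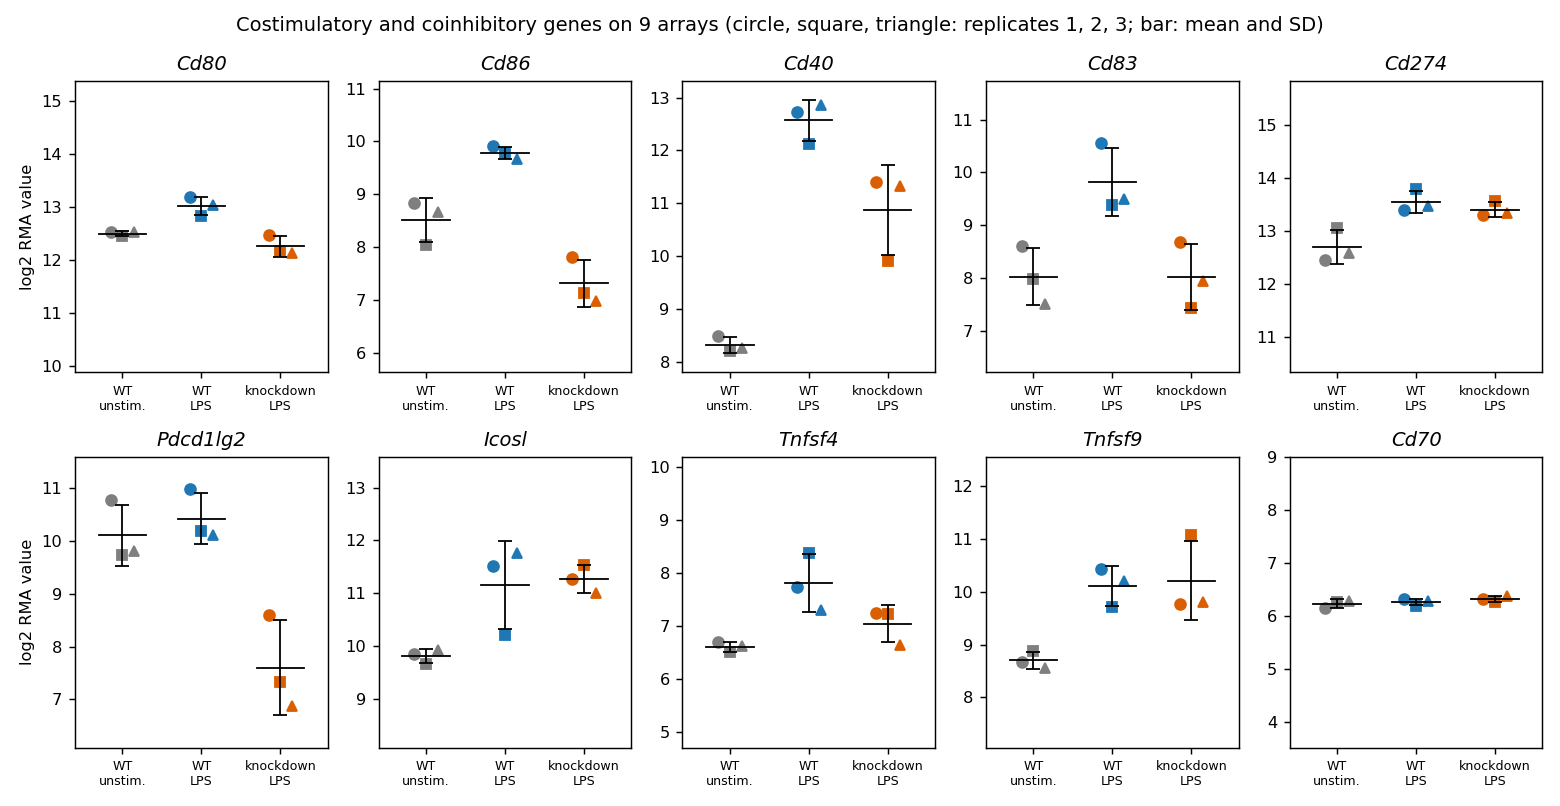
Log2 array value (vertical axis, drawn to the same height in log2 units in every panel) of each of the 10 genes on the 9 arrays, by group, with 1 symbol per replicate number and the group mean with its SD. Cd86 and Pdcd1lg2 lie lower on all 3 knockdown arrays than on all 6 wild-type arrays, Cd40 lies between the wild-type groups, and Cd70 spans 0.24 in all.

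Among the ligands of CD28, Cd86 read 8.83, 8.04 and 8.66 in unstimulated WT cells (replicates 1 to 3), 9.91, 9.78 and 9.68 in LPS-treated WT cells, and 7.82, 7.14 and 6.99 in LPS-treated knockdown cells. The 3 groups did not overlap, and the knockdown arrays were the lowest of all 9. Having all 3 knockdown values below all 6 WT values was found in 3.53% of genes and applied to Cd86 and Pdcd1lg2 among the 10. Having them above all 6 was found in 3.28% of genes and in none of the 10. Cd86 rose 2.43-fold with LPS in WT cells (log2 difference 1.28, SE 0.25, 95% confidence interval 0.70 to 1.86, adjusted p = 0.0162). In knockdown cells it was 5.56-fold below LPS-treated WT cells (-2.47, SE 0.25, interval -3.05 to -1.90, adjusted p = 0.00929) and 2.29-fold below unstimulated WT cells (-1.19, SE 0.25, adjusted p = 0.0204). Within the replicate numbers the knockdown array differed from LPS-treated WT by -2.09, -2.64 and -2.69, and from unstimulated WT by -1.02, -0.89 and -1.67.

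Cd80, the other CD28 ligand, read 12.52, 12.45 and 12.52 in unstimulated WT cells, 13.18, 12.83 and 13.05 after LPS and 12.48, 12.17 and 12.12 in knockdown cells. The SD was 0.04 in unstimulated WT, 0.18 in LPS-treated WT and 0.19 in knockdown cells. The knockdown values lay under all LPS-treated WT values but overlapped the unstimulated ones. Cd80 rose 1.44-fold with LPS (0.52, SE 0.12, adjusted p = 0.0253) and was 1.70-fold lower in knockdown than in WT cells (-0.76, SE 0.12, adjusted p = 0.0336). Against unstimulated WT cells the knockdown difference was -0.24 (SE 0.12, interval -0.51 to 0.03, adjusted p = 0.272). The second and dimmer probe set of Cd80 read a knockdown difference of -1.03 (SE 0.20, adjusted p = 0.067 among 21789 probe sets) and an LPS difference of 0.83 (SE 0.20, adjusted p = 0.0352), so it had the same direction in both and missed the threshold for the knockdown.

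The log2 difference read for Cd86 was larger than that for Cd80 in both comparisons, on probe sets of unlike brightness. The log2 ratio of Cd86 to Cd80 within an array, which has no meaning as a level, differed by 0.76 between LPS-treated and unstimulated WT cells and by -1.71 between knockdown and WT cells after LPS. The ratio was -5.13 to -4.66 on the knockdown arrays and -3.37 to -3.05 on the LPS-treated WT arrays, without overlap. An exact two-sided permutation test of each change gave p = 0.1, the smallest this test can give with 3 arrays against 3 (0.133 adjusted over 4 such tests), so this test could not have put it under 0.05. Within the replicate numbers the changes were 0.41, 1.36 and 0.49 for LPS and -1.39, -1.98 and -1.76 for the knockdown, each of one sign. The dimmer Cd80 probe set had larger differences than the brighter one. With the mean of both Cd80 probe sets the changes between groups were 0.6 for LPS and -1.58 for the knockdown.

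PD-1 has the ligands PD-L1 and PD-L2, and their genes Cd274 and Pdcd1lg2 are next to each other on chromosome 19, with 0 annotated genes between them in the RefSeq table of GRCm38.p6. Pdcd1lg2 read 10.77, 9.73 and 9.81 in unstimulated WT cells, 10.97, 10.18 and 10.11 after LPS, and 8.60, 7.32 and 6.87 in knockdown cells. The WT groups overlapped and the knockdown arrays were the lowest of all 9. The LPS difference in WT cells was 0.32 (SE 0.47, interval -0.76 to 1.40, adjusted p = 0.686), and it was positive in all 3 replicate numbers at 0.21, 0.45 and 0.30. The knockdown value was 7.06-fold below LPS-treated WT cells (-2.82, SE 0.47, interval -3.90 to -1.74, adjusted p = 0.0421) and 5.67-fold below unstimulated WT cells (-2.50, SE 0.47, adjusted p = 0.0129). The differences within replicate numbers were -2.37, -2.85 and -3.24 against LPS-treated WT cells.

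Cd274 read 12.45, 13.05 and 12.58 in unstimulated WT cells, 13.39, 13.79 and 13.47 after LPS, and 13.31, 13.57 and 13.34 in knockdown cells. The LPS-treated groups overlapped each other and lay above the unstimulated one, and the array numbered 2 was the highest in each of the 3 groups. Cd274 rose 1.81-fold with LPS in WT cells (0.85, SE 0.17, adjusted p = 0.0169). The knockdown difference was -0.15 (SE 0.17, adjusted p = 0.759), with an interval of -0.53 to 0.24, and knockdown cells stood 1.63-fold above unstimulated WT cells (0.71, SE 0.17, adjusted p = 0.0326). The log2 ratio of Pdcd1lg2 to Cd274 within an array differed by -2.67 between knockdown and WT cells after LPS (-6.47 to -4.70 against -3.61 to -2.42, exact permutation p = 0.1, adjusted p = 0.133). It differed by -0.54 between LPS-treated and unstimulated WT cells, with overlap (exact permutation p = 0.5, a test that does not use the replicate numbers). Within the numbers that change was -0.73, -0.29 and -0.59, and it ranged from -0.90 without unstimulated replicate 2 and -0.89 without LPS-treated WT replicate 1 to -0.29 without LPS-treated WT replicate 2 and -0.08 without unstimulated replicate 1.

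RefSeq promoter windows (GRCm38.p6) were at hand for 4 of the 10 genes, Cd80, Icosl, Cd274 and Pdcd1lg2. The 250 bases upstream of the start are shown for the neighbouring PD-1 ligand genes, since one passed the test in the knockdown and the other did not, and for Cd80, with motif matches in capitals. The Cd274 and Cd80 windows lie within the RefSeq span of their own gene, which reaches further upstream through another listed start. Cd274 is at chr19:29367188-29367437, Pdcd1lg2 at chr19:29410669-29410918 and Cd80 at chr16:38458683-38458932, all on the plus strand.
Cd274: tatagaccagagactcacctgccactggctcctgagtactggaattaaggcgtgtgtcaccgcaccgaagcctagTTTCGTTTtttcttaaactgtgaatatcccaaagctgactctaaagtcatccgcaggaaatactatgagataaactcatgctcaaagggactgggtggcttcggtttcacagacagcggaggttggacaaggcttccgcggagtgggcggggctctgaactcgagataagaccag
Pdcd1lg2: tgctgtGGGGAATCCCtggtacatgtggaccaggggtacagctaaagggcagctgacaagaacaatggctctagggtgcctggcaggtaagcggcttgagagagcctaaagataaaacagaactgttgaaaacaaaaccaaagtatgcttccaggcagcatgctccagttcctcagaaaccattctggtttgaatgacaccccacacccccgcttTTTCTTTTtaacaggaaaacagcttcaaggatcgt
Cd80: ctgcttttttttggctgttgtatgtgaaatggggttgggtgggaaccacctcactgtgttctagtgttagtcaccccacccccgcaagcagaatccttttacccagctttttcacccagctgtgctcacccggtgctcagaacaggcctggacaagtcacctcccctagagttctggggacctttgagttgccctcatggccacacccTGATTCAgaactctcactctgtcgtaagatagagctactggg

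Searched on both strands were the NF-kB consensus, the IRF site AANNGAAA, the paired IRF core (GAAA, NN and GAAA again), the ETS-IRF composite (GGAA, NN and GAAA), the AP-1 site TGANTCA and the STAT site TTCNNNGAA. Pdcd1lg2 held an NF-kB match, GGGGAATCCC, 244 to 235 bases upstream, which reads as a match on either strand and is a motif found in 3.9% of the 32851 windows of this length. It also held an IRF match on the minus strand, TTTCTTTT, 35 to 28 bases upstream. Cd274 held an IRF match on the minus strand, TTTCGTTT, 175 to 168 bases upstream, and the IRF site occurs in 21.3% of windows. Every match to either 10-base IRF core contains the shorter IRF site, and none of the 4 genes held such a core (2.98% and 2.3% of windows) or a STAT site (7.02%). Cd80 held the AP-1 site TGATTCA 42 to 36 bases upstream (6.75% of windows), and the Icosl window held none of the motifs. These are matches of letters, not measured binding.

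Cd40 had the largest LPS response of the 10. It read 8.50, 8.20 and 8.26 in unstimulated WT cells, 12.73, 12.12 and 12.85 after LPS, and 11.41, 9.90 and 11.34 in knockdown cells. The 3 groups were fully separated, with the knockdown arrays between the WT groups. The rise in WT cells was 19.0-fold (4.25, SE 0.38, adjusted p = 0.000762), and knockdown cells stood 5.91-fold above unstimulated WT cells (2.56, SE 0.38, adjusted p = 0.00493). The difference of LPS-treated knockdown from unstimulated WT cells was 60.3% of the WT log2 response, a ratio of differences between group means. It is not an LPS response of knockdown cells, whose unstimulated level was not measured. The same ratio taken within the 3 replicate numbers had an SD of 14.2. The knockdown difference from LPS-treated WT cells was -1.69 (SE 0.38, interval -2.56 to -0.81). It missed the threshold in the unpaired fit (adjusted p = 0.0971) and passed it in the paired fit (adjusted p = 0.0259), with -1.32, -2.22 and -1.52 for the 3 replicate numbers.

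Cd83 read 8.60, 7.98 and 7.51 in unstimulated WT cells, 10.55, 9.39 and 9.50 after LPS, and 8.68, 7.44 and 7.94 in knockdown cells. The knockdown arrays overlapped the unstimulated arrays and lay below all 3 LPS-treated WT arrays. Cd83 rose 3.44-fold with LPS (1.78, SE 0.42, adjusted p = 0.0323). Its knockdown difference from LPS-treated WT cells was -1.79 (SE 0.42, interval -2.76 to -0.82), at an adjusted p of 0.106 unpaired and 0.0103 paired. It was -1.88, -1.94 and -1.56 within the replicate numbers. Against unstimulated WT cells the difference was -0.01 (SE 0.42), with a wide interval of -0.98 to 0.96 and a sign that changed with the processing.

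**Figure D2:**
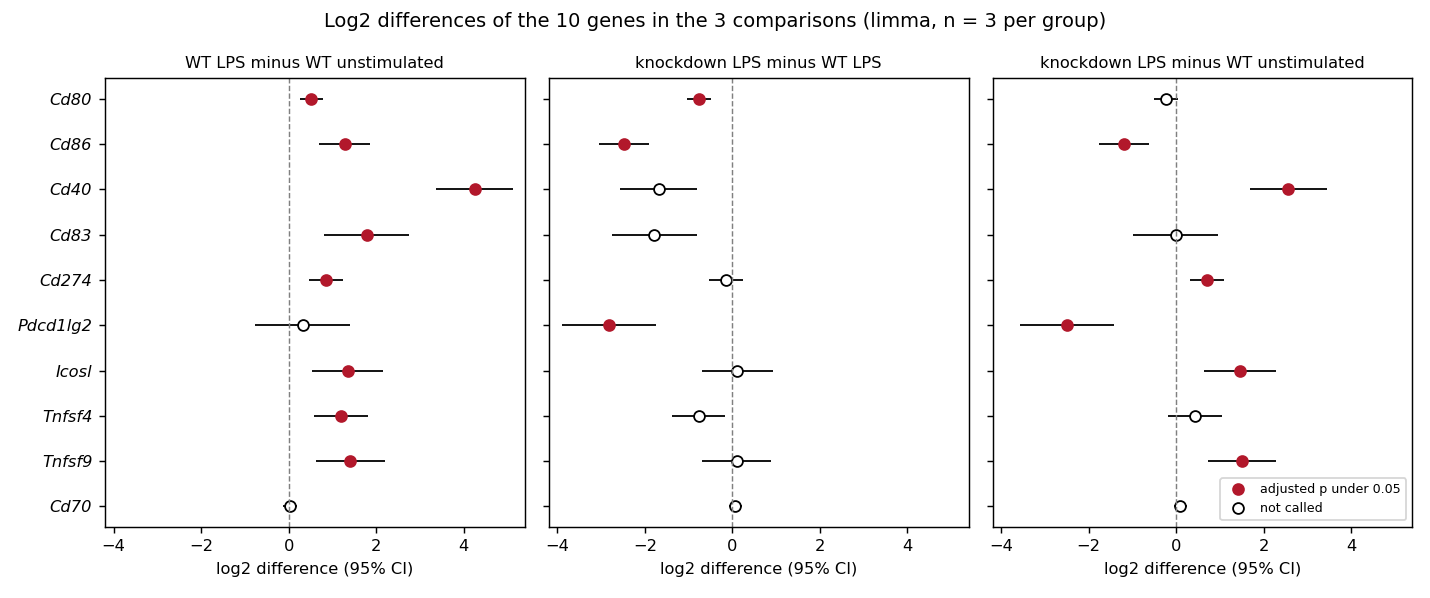
Log2 difference (horizontal axis) of each gene in the 3 comparisons, with its 95% confidence interval from limma (3 arrays per group). Filled points passed the adjusted threshold: 8 in the LPS comparison, 3 between knockdown and wild-type cells after LPS, and 6 between LPS-treated knockdown and unstimulated wild-type cells, of which 4 were higher and 2 lower.

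Icosl, the ligand of ICOS, read 9.86, 9.67 and 9.92 in unstimulated WT cells, 11.52, 10.22 and 11.76 after LPS, and 11.27, 11.54 and 11.01 in knockdown cells. The LPS-treated WT array of replicate 2 was more than a log2 unit below the other two of its group. Icosl rose 2.54-fold with LPS in WT cells (1.35, SE 0.36, adjusted p = 0.0477). Knockdown cells stood 2.75-fold above unstimulated WT cells (1.46, SE 0.36, adjusted p = 0.0352). The difference between knockdown and WT cells after LPS was 0.11 (SE 0.36, interval -0.70 to 0.93, adjusted p = 0.916), made of -0.24, 1.33 and -0.75 for the 3 replicate numbers.

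Of the 3 TNF family ligands, Tnfsf9 read 8.67, 8.87 and 8.56 in unstimulated WT cells, 10.44, 9.70 and 10.20 after LPS, and 9.77, 11.06 and 9.80 in knockdown cells. Both LPS-treated groups lay above the unstimulated one and overlapped each other. The gene rose 2.66-fold with LPS (1.41, SE 0.34, adjusted p = 0.0346) and was 2.85-fold above unstimulated WT cells in the knockdown (1.51, SE 0.34, adjusted p = 0.0265). Its knockdown difference after LPS was 0.10 (SE 0.34, interval -0.69 to 0.88), and, as for Icosl, replicate 2 went the other way from replicates 1 and 3 (-0.67, 1.36 and -0.40). Without the arrays numbered 2, a choice made after the values were seen, the difference was -0.54 for Tnfsf9 (adjusted p = 0.0489) and -0.50 for Icosl (adjusted p = 0.0958). For Tnfsf9 the adjusted p over all alternatives ran from 0.0489 to 0.946.

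Tnfsf4 read 6.69, 6.51 and 6.62 in unstimulated WT cells, 7.74, 8.39 and 7.30 after LPS, and 7.25, 7.23 and 6.63 in knockdown cells. Its knockdown values lay just under the lowest LPS-treated WT value, by 0.05 at the nearest, and overlapped the unstimulated ones. It rose 2.30-fold with LPS (log2 difference 1.20, SE 0.27, interval 0.59 to 1.81, adjusted p = 0.0257). Its unstimulated values lay below the array medians, with no measure of background at hand, so this estimate may be understated. The interval does not cover that uncertainty, and 2.30-fold is not a lower limit. The knockdown difference was -0.77 (SE 0.27, interval -1.38 to -0.16, adjusted p = 0.263, paired 0.125), and it was negative in all 3 replicate numbers. Cd70, the ligand of CD27, stayed between 6.14 and 6.38 on all 9 arrays. Its differences were 0.03 for LPS (interval -0.12 to 0.18) and 0.06 for the knockdown (interval -0.09 to 0.21), with adjusted p of 0.786 and 0.751. Cd70 lies beside Tnfsf9 on chromosome 17, with 0 annotated genes between them in the same RefSeq table.

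**Figure D3:**
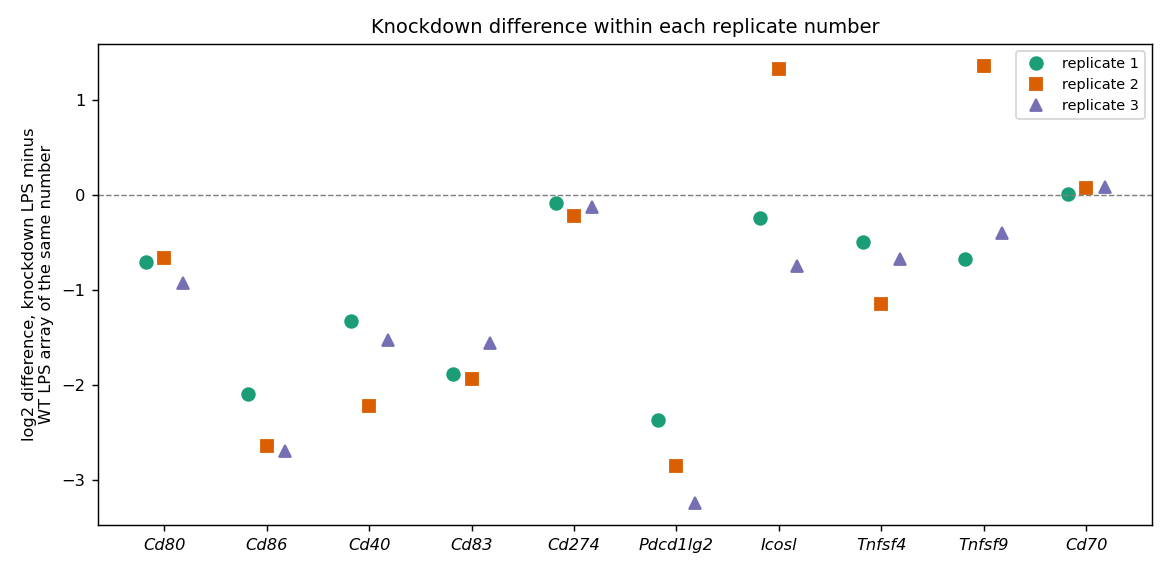
Difference in log2 value between LPS-treated knockdown and LPS-treated wild-type arrays that share a replicate number (vertical axis) for each gene. Cd80, Cd86, Cd40, Cd83, Cd274, Pdcd1lg2 and Tnfsf4 are below 0 for all 3 numbers, whereas Icosl and Tnfsf9 are above 0 for replicate 2 (1.33 and 1.36) and below 0 for the other two.

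Of the 8 genes that LPS raised in WT cells, Cd80 and Cd86 were called lower in the knockdown. Of all 796 genes that LPS raised, 28 were called lower (3.52%). For the 8 genes the paired fit added Cd40 and Cd83 (adjusted p = 0.0259 and 0.0103), beside 1.24% of all genes called lower. Genes raised by LPS were picked for high values on the LPS-treated WT arrays. The knockdown comparison uses those arrays again, so these counts are only a description. Relative to unstimulated WT cells, LPS-treated knockdown cells were higher in Cd40, Cd274, Icosl and Tnfsf9 and lower in Cd86 and Pdcd1lg2, beside 4.23% of all genes higher and 6.64% lower. The paired fit also called 4 higher and 2 lower, beside 5.62% and 8.65%. The same 4 lay above all 3 unstimulated values (12.2% of genes) and the same 2 below (15% of genes). In this comparison, which shares arrays with the other two, Cd80, Cd83, Tnfsf4 and Cd70 did not pass (adjusted p from 0.272 to 0.995). The share of the WT log2 response was again the difference of LPS-treated knockdown from unstimulated WT cells, from group means. It was 83.0% for Cd274, with an SD of 11.2 over the ratios within replicate numbers. For Icosl it was 108% (SD 157) and for Tnfsf9 107% (SD 113), too scattered to place them. These SDs need not centre on the printed shares.

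With 3 arrays per group most calls depended on which arrays were used, although no called difference changed sign when any 1 of the 9 arrays was left out. The LPS rise of Cd40 stayed under the threshold in all 9 such fits, at 4.11 to 4.47. The LPS rise of Cd86 was lost without LPS-treated WT replicate 1 (1.22, adjusted p = 0.0662) or 3 (1.34, adjusted p = 0.0548), and that of Cd274 without unstimulated replicate 1 or 3 or LPS-treated WT replicate 3 (adjusted p up to 0.0704). Those of Cd80 and Tnfsf9 were lost without any 1 of the unstimulated arrays or LPS-treated WT replicate 1 or 3 (adjusted p up to 0.0945 and 0.123). That of Cd83 was lost without unstimulated replicate 2 or 3, LPS-treated WT replicate 1 or 3, or knockdown replicate 3 (adjusted p up to 0.113), and that of Tnfsf4 without any 1 unstimulated array or LPS-treated WT replicate 1 (up to 0.0828). The rise of Icosl kept it only without LPS-treated WT replicate 2, where it was 1.82 (adjusted p = 0.000953). With any other array left out its adjusted p reached up to 0.158.

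The knockdown difference of Cd86 was lost without LPS-treated WT replicate 1 (-2.41, adjusted p = 0.0557) or 3 (-2.53, adjusted p = 0.0521). That of Cd80 kept its call in 3 of 9 fits (-0.87 to -0.68, adjusted p up to 0.131), and it was lost without unstimulated replicate 1 or 3, LPS-treated WT replicate 1 or 3, or knockdown replicate 2 or 3. That of Pdcd1lg2 kept it in 2 of 9 fits, without LPS-treated WT replicate 2 or knockdown replicate 1 (-3.32 to -2.46 over the 9, adjusted p up to 0.151). Against unstimulated WT cells the lower level of Pdcd1lg2 and the higher level of Cd40 passed in all 9 fits, at -3.01 to -2.14 and 2.30 to 3.05. The lower level of Cd86 than in unstimulated WT cells was lost without unstimulated replicate 1 or 3 or knockdown replicate 2 or 3 (adjusted p up to 0.0795). In that comparison the higher level of Tnfsf9 was lost without unstimulated replicate 1 or 3 (adjusted p up to 0.0948), and that of Icosl without any 1 of the unstimulated or knockdown arrays (up to 0.0984). That of Cd274 was lost without unstimulated replicate 1 or 3, LPS-treated WT replicate 3 or any 1 knockdown array (up to 0.118).

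Across the 9 arrays Cd86 and Cd80 had a Pearson r of 0.95 (0.68 for deviations from the group means), and Cd86 and Pdcd1lg2 one of 0.89 (0.86 within groups). Icosl and Tnfsf9 had an r of 0.89 (0.57 within groups), whereas Pdcd1lg2 and Cd274 had an r of -0.30 (-0.50 within groups). These are descriptions over 9 arrays that share their groups and replicate numbers. Among all genes with a name, those most like Cd86 over the 9 arrays were Gripap1, an adaptor of AMPA receptor trafficking (r = 0.956, with a knockdown difference of only -0.18), Cd80 (0.946), Ccr7, the chemokine receptor of migrating dendritic cells (0.941), Pkp4, a plakophilin (0.937), and Tmem176b (0.93).

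Of 22 other molecules that T cells meet on antigen-presenting cells or that regulate this contact, LPS raised 5 and lowered 4 in WT cells, beside 3.99% and 6.86% of all genes (median log2 difference 0.15). The paired fit called 6 higher and 5 lower, beside 5.19% and 9.57%. Icam1, the adhesion ligand of LFA-1, rose by 1.60 (SE 0.08), the TNF family cytokine Tnfsf15 by 4.90 (SE 0.56) and Pvr, a ligand of TIGIT and CD226, by 1.62 (SE 0.19). Vsir, the coinhibitory ligand VISTA, fell by 1.40 (SE 0.12), Cd200r1, an inhibitory receptor, fell by 0.94 (SE 0.13), and Tnfsf14, the TNF family ligand LIGHT, fell by 1.62 (SE 0.27). These 6 had adjusted p of 0.000144 to 0.0088. In knockdown cells 0 of the 22 passed in limma, unpaired or paired, with 5 of them lower and 1 of them higher when p was left unadjusted at 0.05. Over all genes that unadjusted threshold was passed by 5.79% lower and 7.32% higher, and these shares apply to each unadjusted knockdown count below. The smallest p were those of Sema4a, a semaphorin that costimulates T cells (-0.68, SE 0.15, adjusted p = 0.087), and Btla, an inhibitory receptor (-0.78, SE 0.21, adjusted p = 0.144).

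CD40 and Toll-like receptors both signal through NF-kB, and 12 of 15 measured genes of that signalling rose with LPS in WT cells and none fell (median 1.12), beside 3.99% and 6.86% of all genes. The paired fit called 13 higher and none lower, beside 5.19% and 9.57%. They included Tnfaip3, a brake on NF-kB (2.68, SE 0.19), the inhibitors Nfkbia (1.79, SE 0.15) and Nfkbie (1.12, SE 0.09), and the CD40 adaptors Traf1 (2.75, SE 0.24) and Traf2 (0.98, SE 0.09). In knockdown cells 0 of the 15 passed in limma, unpaired or paired, with 3 lower at an unadjusted p under 0.05 and a median of -0.19. Traf2 had a difference of -0.45 (SE 0.09, adjusted p = 0.0705) and Traf1 of -0.95 (SE 0.24, adjusted p = 0.123). Tnfaip3 was at -0.06 and Nfkbia at -0.04 (adjusted p = 0.922 and 0.928).

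Of 14 genes that regulate costimulation or dendritic cell identity, 1 rose with LPS, Stat5a, a transducer of GM-CSF signals (1.23, SE 0.32, adjusted p = 0.0434). Pairing brought the count to 4, beside 3.99% of all genes unpaired and 5.19% paired. In knockdown cells 0 passed unpaired, with 7 of them lower and 1 of them higher when p was left unadjusted at 0.05, and the paired fit called 4 lower, beside 5.79%, 7.32% and, for the paired fit, 1.24% of all genes. These were the transcription factors Irf8 (-0.91, SE 0.20, adjusted p = 0.091, paired 0.0201), Batf3 (-0.61, SE 0.14, adjusted p = 0.108, paired 0.0435) and Irf4 (-2.34, SE 0.59, adjusted p = 0.124, paired 0.00601), and Ciita, the class II transactivator (-1.53, SE 0.58, adjusted p = 0.305, paired 0.0228). Marchf1, the ubiquitin ligase that removes CD86 from the surface, was at 0.26 (adjusted p = 0.174). Irf4 read 10.74, 9.31 and 10.08 in unstimulated WT cells, 10.86, 9.25 and 9.92 after LPS, and 8.82, 7.06 and 7.11 in knockdown cells. Like Pdcd1lg2, it was lowest on the 3 knockdown arrays and overlapped between the WT groups.

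The receptors that these ligands meet on T cells were followed in the same arrays. Of 8 such genes, Cd28, Ctla4, Pdcd1, Icos, Tnfrsf4, Tnfrsf9, Cd27 and Cd40lg, none passed in limma in the LPS or the knockdown comparison, although 1 and 3 of them, in turn, were lower when p was left unadjusted at 0.05, beside 16% and 5.79% of all genes. Tnfrsf9, the receptor of 4-1BBL, had a knockdown difference of -2.59 (SE 0.73, adjusted p = 0.161) and read 8.54 to 9.91 on the knockdown arrays against 11.33 to 12.62 on the LPS-treated WT arrays. Cd28 had one of -1.22 (SE 0.36, adjusted p = 0.179). Between LPS-treated knockdown and unstimulated WT cells Cd28 was the 1 of the 8 called lower, with a log2 difference of -2.30 (adjusted p = 0.00607, paired 0.00598), beside 6.64% of all genes. Of 13 measured lymphocyte markers 0 passed in limma in either comparison, although 2 were higher and 1 was lower for LPS, and 1 was lower for the knockdown, when p was left unadjusted at 0.05. For LPS that threshold was passed by 10.3% of all genes upward and 16% downward. The mean log2 value over that list was 5.96 to 6.0 in unstimulated WT, 5.91 to 6.08 in LPS-treated WT and 5.95 to 6.03 in knockdown cells.

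Levels of cell type markers also differed between knockdown and WT cells, and their part in the results above was not tested. Of 19 dendritic cell markers 1 was called lower in knockdown cells, Fscn1, the actin bundler of dendrites (-1.89, SE 0.33, adjusted p = 0.0476). Pairing raised this number to 7, and 11 were lower at an unadjusted p under 0.05. Both counts include Irf4, Irf8 and Batf3, which are also in the list of genes that regulate costimulation and were counted there. Over all genes 0.361% were called lower, 1.24% in the paired fit and 5.79% at an unadjusted p. In the list all 19 differences were negative (median -1.04, from -3.08 to -0.04), and the median over all genes was -0.03. The share of all genes with a negative difference was not computed. The mean over the list was 9.68 to 10.49 in unstimulated WT, 9.98 to 10.66 in LPS-treated WT and 8.66 to 9.83 in knockdown cells, with H2-Ab1, an MHC class II chain, at -2.14 (adjusted p = 0.158, paired 0.0433). Of 17 mast cell and basophil markers 0 were called in limma, 6 were lower at an unadjusted p under 0.05 and 3 in the paired fit, beside 5.79% and 1.24% of all genes. The list mean was 6.92 to 7.05 in unstimulated WT, 7.17 to 7.45 in LPS-treated WT and 6.69 to 6.94 in knockdown cells. The knockdown range thus overlapped the unstimulated one. Gata2, a transcription factor, was at -0.87 (SE 0.16, adjusted p = 0.0593, paired 0.0306). Kit, the SCF receptor, was at -1.73 (SE 0.35, adjusted p = 0.0729, paired 0.017). In the same list Fcer1a, Ms4a2, Tpsb2, Tpsab1, Cma1 and Mcpt4 lay below the array medians on all 9 arrays. None of these was called in the knockdown comparison, unpaired or paired.

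Of 17 macrophage markers 1 was called higher, Spic, which red pulp macrophages need to develop (2.74, SE 0.44, adjusted p = 0.0384), and none lower, beside 0.401% and 0.361% of all genes. At an unadjusted p under 0.05, 2 were higher and 3 lower, the latter being Csf1r, the M-CSF receptor (-0.65), the chemokine receptor Cx3cr1 (-1.02) and the lipid receptor Trem2 (-0.32), and 12 of the 17 differences were negative (median -0.26). The list had means of 10.24 to 10.85 in unstimulated WT, 10.30 to 10.77 in LPS-treated WT and 9.75 to 10.64 in knockdown cells. Of 16 neutrophil markers 0 were called in limma. At an unadjusted p under 0.05, 5 were lower, beside 5.79% of all genes. The paired fit called 1 lower, beside 1.24% of all genes: Mpo, the granule peroxidase (-1.74, adjusted p = 0.0825, paired 0.032). The list means were 8.64 to 9.74 in unstimulated WT, 9.01 to 10.31 in LPS-treated WT and 8.07 to 9.60 in knockdown cells. Of 7 plasmacytoid dendritic cell markers 0 were called in limma and 1 was lower at an unadjusted p under 0.05, beside 5.79% of all genes. Their list means were 7.41 to 7.60 in unstimulated WT, 7.53 to 7.94 in LPS-treated WT and 7.42 to 7.54 in knockdown cells.

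**Figure D4:**
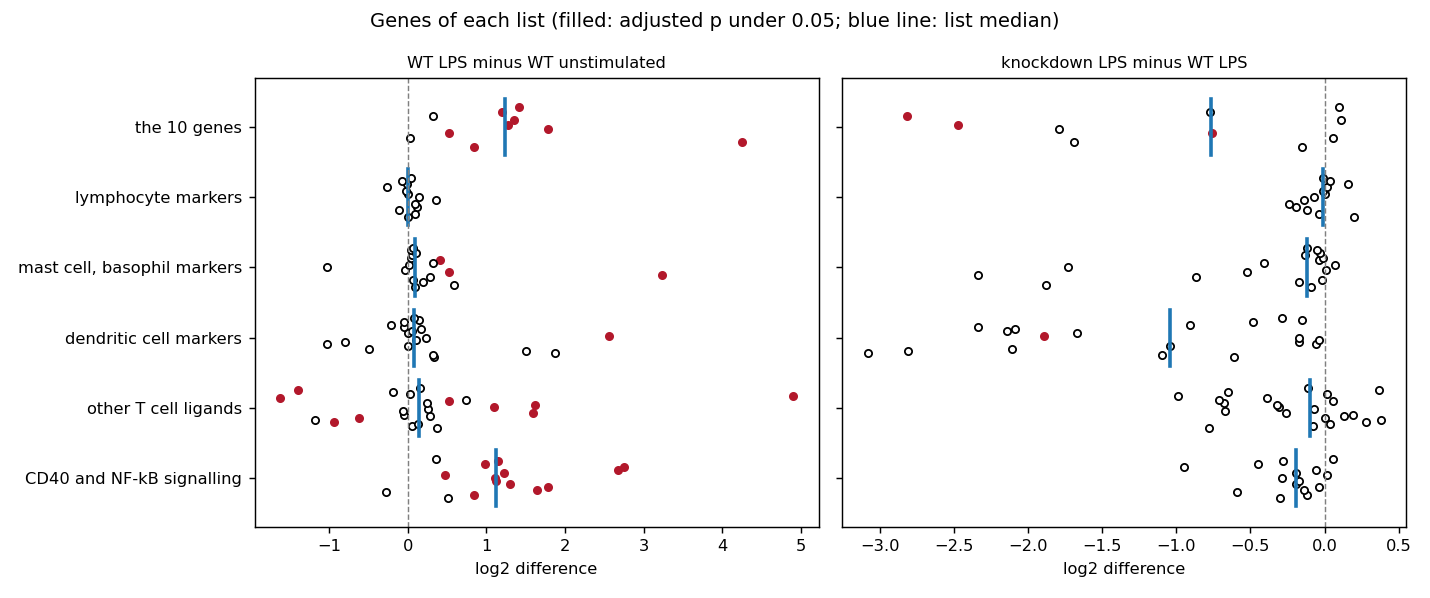
Log2 difference (horizontal axis) of every measured gene of 6 lists after LPS in wild-type cells and in knockdown against wild-type cells after LPS. Filled points passed the adjusted threshold and blue lines are list medians, which for the knockdown are -0.77 for the 10 genes, -1.04 for dendritic cell markers and -0.19 for CD40 and NF-kB signalling.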

How the data were processed

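The arrays were 1-colour Affymetrix mouse gene arrays. The authors deposited log2 values from RMA, which corrects background, normalizes between arrays and summarises each probe set. RMA is named by the submitters' processing notes without a version, and the genome build is not given in the sources used here. The values were used unchanged. RMA draws low values together, so differences of dim genes may be understated. Array medians were 7.22 to 7.31 and replicates correlated by 0.985 to 0.997 across genes. The number of arrays limits the precision.

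Of 35556 probe sets, 21789 named 1 gene, 1621 named several and 12146 were in no gene table row. Symbols were updated through Entrez identifiers in the RefSeq table of GRCm38.p6 (21698 matched). The probe set with the highest mean stood for a gene, giving 19938 genes.

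limma 3.58.1 (R 4.3.3) fitted 1 mean per group to the 9 arrays, with two-sided empirical Bayes moderated tests. Tested on simulated data for the knockdown comparison over 19938 genes, it recovered 52.2%, 89.6% and 98.5% of genes changed by a log2 of 0.5, 1 and 2, with 8 false calls. These are averages over randomly drawn genes. The simulated noise was independent between arrays and of the same size on all 9. The real arrays shared deviations by replicate number and had unequal array weights, so these rates may not hold for them. Cd40 (SE 0.38) and Cd83 (SE 0.42) missed the threshold at differences of -1.69 and -1.79. Deviations from the group means correlated by 0.14 to 0.48 between the 9 pairs of arrays with the same replicate number. Between the other 18 pairs they correlated by -0.41 to 0.25, so the ranges overlapped. Deviations cancel within each group, so these ranges are not independent of each other. Same-numbered arrays were taken as pairs. Calls nevertheless rest on the fit without pairs, which was set as the main one, and the paired fit is given beside calls and counts it changes. The labels call the replicates biological and do not say what arrays with the same number share.

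The genes, the lists and the rule for named genes (the 10 genes, up to 6 genes per list with the smallest p, the 5 genes most like the one with the smallest knockdown p, and Kdm4d) were chosen with earlier results of these data known. Ciita, H2-Ab1, Itgax, Adgre1, Flt3 and the knockdown values of Tnfaip3 and Nfkbia were added after their values were seen. So were Fcer1a, Ms4a2, Tpsb2, Tpsab1, Cma1 and Mcpt4. Alternatives tried were the replicate block, a filter on low values, other scalings, an intensity trend, array weights, the 6 arrays compared, the mean of probe sets, and leaving out arrays.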

Additional observations from a re-analysis of the deposited data

How the results depend on the processing

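Leaving out 1 array at a time, or all 3 arrays numbered 2, moved the counts. After LPS in WT cells 393 to 1757 genes were called higher and 475 to 3152 lower, and 2 to 8 of the 10 genes higher. Between knockdown and WT cells after LPS 11 to 427 genes were called higher and 7 to 241 lower, and 0 to 4 of the 10 lower. Between LPS-treated knockdown and unstimulated WT cells 433 to 1313 genes were called higher and 601 to 2490 lower, with 1 to 4 of the 10 higher and 1 to 2 lower. The replicate block, which pairs the arrays, gave 301 higher, 247 lower and 5 of the 10 lower for the knockdown, and it changed the call of Cd40 and Cd83 and of no other of the 10 in any comparison. Normalizing by quantiles again gave 111 lower. Fits to the 6 arrays compared gave 14 higher, 19 lower and 1 of the 10 lower for the knockdown, and 2 of the 10 higher and 1 lower for LPS-treated knockdown against unstimulated WT cells. Array weights, which ran from 0.248 to 6.83, gave 4155 higher and 4302 lower for LPS, 2058 higher, 2225 lower and 5 of the 10 lower for the knockdown, and 2065 higher and 2972 lower for LPS-treated knockdown against unstimulated WT cells. The cause of these shifts was not tested.

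Signs turned for values that had not passed. The LPS difference of Cd70 was -0.01 with centred arrays, -0.02 with quantiles and -0.02 to 0.09 with arrays left out. The knockdown difference of Icosl was -0.50 with array weights and -0.50 to 0.41 with arrays left out, and that of Tnfsf9 was -0.32 and -0.54 to 0.32. Cd83 against unstimulated WT cells was 0.04 with quantiles, 0.58 with array weights and -0.34 to 0.28 with arrays left out. No called difference of the 10 genes changed sign under any alternative run. Cd70 and Tnfsf4 did not pass the filter on low values, and the other 8 genes did.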
